A study of Homo sapiens with 6 samples.

Results

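The genes described here are the transcription factors of the FOX, SOX, TBX, GATA, PAX, NKX and sine oculis homeobox families. They were taken by symbol, as each row whose name is the family stem followed by its member number. This gave 110 of the 33117 rows of the table: 44 FOX, 19 SOX, 13 TBX, 6 GATA, 9 PAX, 13 NKX and 6 sine oculis homeobox genes. The rule reads symbols and no measured value, but the families were picked with earlier results of these data known.

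The values compare 3 shCAVIN1 libraries with 3 shCtrl libraries of total RNA from WPMY-1, an immortalised cell line of normal human prostate stroma. The shCAVIN1 cells carried a lentiviral short hairpin RNA against CAVIN1, which coats caveolae, small pits of the plasma membrane, and the shCtrl cells carried the pLKO1 control plasmid. Both viruses were packaged in HEK293T cells, a human embryonic kidney line, and the transduced cells of both groups were selected with puromycin to give stable lines. A single hairpin sequence was used, and the labels call the products knockdown clones. Whether each replicate was its own transduction or clone is not said, and each p-value rests on the spread of these libraries only.

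The unit is FPKM, fragments scaled by transcript length and by the mapped fragments of the library. Tests used limma on log2(FPKM + 0.5) for the 13941 rows with a mean of at least 0.5 FPKM over the 6 libraries. A gene was called where its p, adjusted by the Benjamini-Hochberg method over all tested rows, was under 0.05. Errors of FPKM are standard deviations (SD, n = 3 per group) and errors of log2 fold changes are standard errors (SE). Plain folds and percentages of shCtrl are ratios of mean FPKM, whereas log2 fold changes include the 0.5 and understate the change of low genes. CAVIN1, listed under its older symbol PTRF, had 134, 139 and 150 FPKM in shCAVIN1 cells and 330, 347 and 330 FPKM in shCtrl cells. Its mean was 42.0% of shCtrl (log2 fold change -1.25, SE 0.0586, limma adjusted p = 2.88e-05), and the exact permutation test (two-sided) was at p = 0.1, the lowest value open to 3 against 3 libraries.

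These families hold many of the proteins that set up body regions and cell identities in the embryo. FOX proteins bind DNA through a forkhead domain, SOX proteins through an HMG box that bends DNA, TBX proteins through a T-box, and GATA proteins through zinc fingers. PAX proteins carry a paired domain, while NKX and sine oculis proteins carry homeodomains, and the sine oculis proteins work with EYA coactivators. In the prostate, FOXA1 is known for luminal epithelium, while FOXF1, FOXL1 and several TBX factors are known in the mesenchyme of many organs.

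Of the 110 genes, 46 were tested, and 35 of them (76.1%) passed the threshold, against 55.5% of all rows tested. The direction was divided, with 17 higher and 18 lower in shCAVIN1 cells, against 27.3% and 28.2% of all tested rows, and 11 that did not pass. The median log2 fold change of the 46 was -0.07, beside -0.02 over all tested rows, and the median absolute value was 0.49, beside 0.27. Changes of at least 2-fold on the log2(FPKM + 0.5) scale were called for 9 of the 46 (19.6%), against 5.54% of all tested rows. TBX2 was higher, and FOXP1, GATA3, NKX2-1, NKX2-6, NKX2-8, PAX3, PAX6 and SOX4 were lower. Groups did not overlap for 36 of the 46 (78.3%), against 64.6% of all tested rows. With the libraries rescaled to a common sum of FPKM, 27 of the 46 passed, 14 higher and 13 lower, and over all rows 2199 were higher and 1213 lower, against 3807 higher and 3927 lower without rescaling.

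The filter bears on these counts. A mean of at least 0.5 FPKM was reached in both groups by 38 of the 46, in shCAVIN1 cells alone by FOXA3, and in shCtrl cells alone by FOXF1, GATA3, NKX2-1, NKX2-6, NKX2-8, PAX3 and SOX9. A gene that passed through its high group alone had to differ, and 5 of the 9 genes changed at least 2-fold are of that kind. The other 4, FOXP1, PAX6, SOX4 and TBX2, reached the filter in both groups. The summed FPKM of the 110 genes was 267 to 276 in shCAVIN1 libraries and 273 to 283 in shCtrl libraries. Fewer of them reached 1 FPKM, with 32 to 34 in shCAVIN1 libraries and 40 to 42 in shCtrl libraries.

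**Figure D1:**
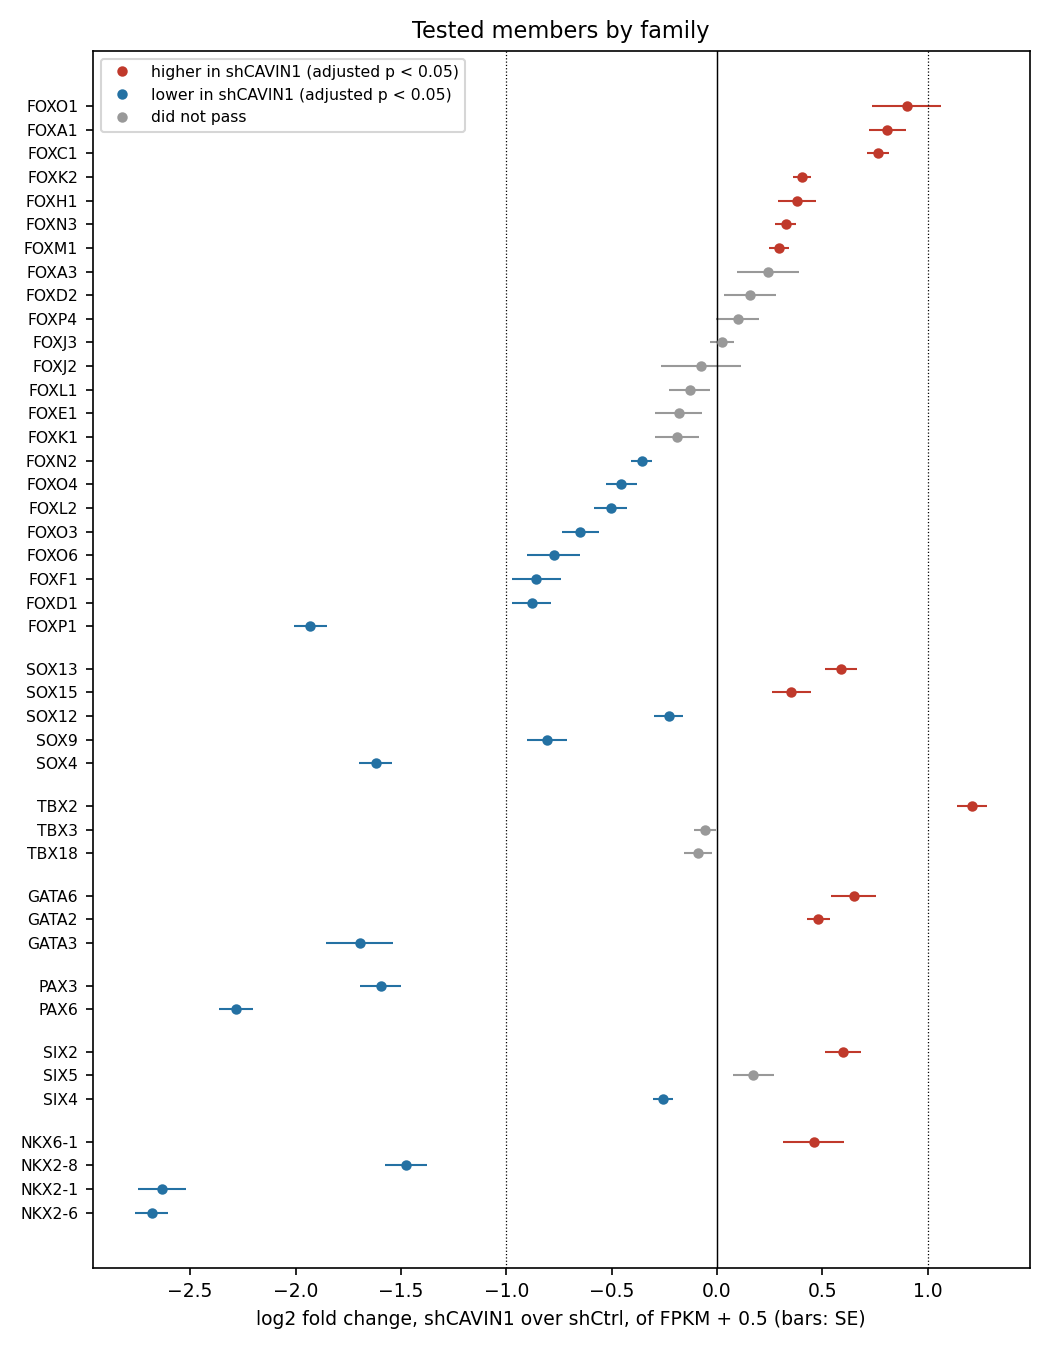
Log2 fold change of FPKM + 0.5, shCAVIN1 over shCtrl, of 43 tested genes by family, with bars for the SE. Red is higher and blue lower in shCAVIN1 at a limma adjusted p under 0.05, grey did not pass, and dotted lines mark 2-fold; 8 genes lie left of the lower line and TBX2 alone right of the upper.

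All 5 tested NKX genes were called, where 55.5% of all tested rows were, with 3 far lower and 2 higher in shCAVIN1 cells. The 3 lower genes, NKX2-1, NKX2-6 and NKX2-8, reached the filter in shCtrl cells alone, so they had to differ to be tested. NKX2-1, the thyroid and lung factor also called TTF-1, was listed at 0.0242, 0 and 0 FPKM in shCAVIN1 cells and at 2.36, 3.14 and 2.51 FPKM in shCtrl cells. NKX2-6, a factor of the embryonic pharynx and heart, was listed at 0 in each shCAVIN1 library, against 2.77, 2.73 and 2.64 FPKM in shCtrl cells. NKX2-8, a close relative of NKX2-1 in foregut endoderm, had 0.214, 0.265 and 0.301 FPKM in shCAVIN1 cells and 1.45, 1.62 and 1.77 FPKM in shCtrl cells. In each of the 3 genes every shCAVIN1 library lay below every shCtrl library. The log2 fold changes were -2.63 (SE 0.115, limma adjusted p = 2.34e-05) for NKX2-1, -2.68 (SE 0.0769, limma adjusted p = 6.95e-06) for NKX2-6 and -1.48 (SE 0.0989, limma adjusted p = 9.44e-05) for NKX2-8. These sizes depend on the 0.5 added before the logarithm, and no ratio of means is given for NKX2-1 or NKX2-6, since a listed 0 in this kind of table can be a failed estimate.

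NKX2-1 at chr14:36516392-36521149 and NKX2-8 at chr14:36580579-36582607, both on the minus strand (GRCh38, GENCODE 29), start 61.5 kb apart. PAX9, a paired-box factor of the pharyngeal pouches, teeth and vertebrae, lies a further 75.0 kb on at chr14:36657568-36679715 on the plus strand. FOXA1, a forkhead pioneer factor that opens chromatin in prostate and breast epithelium, follows 938 kb later at chr14:37589984-37596059 on the minus strand. The 250 bases before a RefSeq start of each of these neighbours (GRCh38.p14), for NKX2-1 and PAX9 the one of 2 listed starts that lies nearer the GENCODE 5′ end, are shown because they stand in a single stretch of chromosome 14 and did not move alike. The windows, read 5′ to 3′ on the strand of the gene, are chr14:36520233-36520482 (minus) for NKX2-1, chr14:36582615-36582864 (minus) for NKX2-8, chr14:36657318-36657567 (plus) for PAX9 and chr14:37595250-37595499 (minus) for FOXA1. Capitals mark CpG dinucleotides.
NKX2-1: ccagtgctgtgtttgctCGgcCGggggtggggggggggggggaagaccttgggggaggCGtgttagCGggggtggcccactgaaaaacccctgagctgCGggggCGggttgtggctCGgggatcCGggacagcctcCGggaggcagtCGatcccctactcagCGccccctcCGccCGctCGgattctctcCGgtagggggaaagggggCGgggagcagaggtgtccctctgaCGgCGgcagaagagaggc
NKX2-8: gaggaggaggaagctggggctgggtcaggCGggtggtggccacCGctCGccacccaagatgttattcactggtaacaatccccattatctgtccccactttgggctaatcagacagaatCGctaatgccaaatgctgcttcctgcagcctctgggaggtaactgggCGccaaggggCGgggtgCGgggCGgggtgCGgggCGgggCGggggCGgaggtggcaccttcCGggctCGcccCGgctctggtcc
PAX9: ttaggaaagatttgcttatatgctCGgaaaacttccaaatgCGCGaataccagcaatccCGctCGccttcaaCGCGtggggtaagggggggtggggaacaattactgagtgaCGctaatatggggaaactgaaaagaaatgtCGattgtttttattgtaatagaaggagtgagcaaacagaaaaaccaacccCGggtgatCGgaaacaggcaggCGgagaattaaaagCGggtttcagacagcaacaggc
FOXA1: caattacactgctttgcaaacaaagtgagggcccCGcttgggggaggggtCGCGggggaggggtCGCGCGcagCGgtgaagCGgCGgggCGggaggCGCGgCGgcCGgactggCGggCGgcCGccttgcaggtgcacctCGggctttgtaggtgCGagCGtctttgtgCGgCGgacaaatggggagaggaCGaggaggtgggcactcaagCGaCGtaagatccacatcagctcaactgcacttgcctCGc

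These windows hold 18, 15, 13 and 26 CpG dinucleotides for NKX2-1, NKX2-8, PAX9 and FOXA1, and their GC content is 70.8%, 66.0%, 46.8% and 67.2%. RefSeq promoter windows were matched for 76 of the 110 genes, 113 windows in all, with a median of 16 CpG and 64.4% GC. Over all 35116 windows the medians were 11 CpG and 58.0% GC. The windows were searched on both strands for 6 short motifs, with overlaps allowed. The forkhead core TAAACA was in 10.6% of the member windows and 11.0% of all windows, and the SOX core ACAATG in 11.5% and 9.29% of the same sets. For the GATA core AGATAA the shares were likewise 7.96% and 9.17%, for the NKX2 core CAAGTG 6.19% and 9.50%, for the T-box letters GGTGTGA 2.65% and 2.76%, and for the sine oculis core TGATAC 2.65% and 3.80%. Of the sequences printed, NKX2-8 holds the GATA core and FOXA1 the NKX2 core, while the printed NKX2-1 and PAX9 windows hold none of the 6 sets of letters. The windows of their other starts, not printed, hold the forkhead, GATA and NKX2 cores for NKX2-1 and the SOX core for PAX9.

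PAX9 itself stayed under the filter. It had 0.148, 0.266 and 0.245 FPKM in shCAVIN1 cells and 0.577, 0.457 and 0.775 FPKM in shCtrl cells, without overlap. FOXA1 went the other way, with 2.34, 2.84 and 2.43 FPKM in shCAVIN1 cells and 1.33, 1.20 and 1.16 FPKM in shCtrl cells. Its mean was 2.06-fold higher in shCAVIN1 cells, at 2.54 ± 0.264 and 1.23 ± 0.0864 FPKM (log2 fold change 0.81, SE 0.0870, limma adjusted p = 0.000521). So the neighbours NKX2-1, NKX2-8 and PAX9 were each lower in every shCAVIN1 library than in any shCtrl library, and FOXA1 was higher in every one.

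The rows between and around them were named after their values were seen. SFTA3 and NKX2-1-AS1, which adjoin or overlap NKX2-1, were under the filter, and both were listed at 0 in all 3 shCAVIN1 libraries. In shCtrl cells SFTA3 was at 0.751, 1.02 and 0.779 FPKM and NKX2-1-AS1 at 0.222, 0.349 and 0.257 FPKM. The strand setting of the counting was not stated in the labels, so reads of NKX2-1 and NKX2-1-AS1 may not be told apart. On the other side of NKX2-1, smaller falls passed the test for PTCSC3, 345 kb away (log2 fold change -0.53, limma adjusted p = 0.0128), and for MBIP, 200 kb away (-0.55, limma adjusted p = 0.00342). BRMS1L (-0.19, limma adjusted p = 0.0379) and MIPOL1 (-0.31, limma adjusted p = 0.00843), farther out on either side, also fell. RALGAPA1, SLC25A21 and SLC25A21-AS1 did not pass. SSTR1, a somatostatin receptor gene 1687 kb from NKX2-1, had 16.9 ± 0.715 FPKM in shCAVIN1 cells and 2.45 ± 0.0647 FPKM in shCtrl cells (log2 fold change 2.56, limma adjusted p = 2.09e-06). The median log2 fold change of the 18 other tested protein-coding genes within 2 Mb of NKX2-1 was 0.14. PTCSC3, MBIP, BRMS1L and MIPOL1 lost their calls after rescaling to a common sum (limma adjusted p = 0.0709, 0.125, 0.761 and 0.300). BRMS1L also lost its call without any single library other than shCtrl replicate 1 (limma adjusted p = 0.0649 to 0.129).

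**Figure D2:**
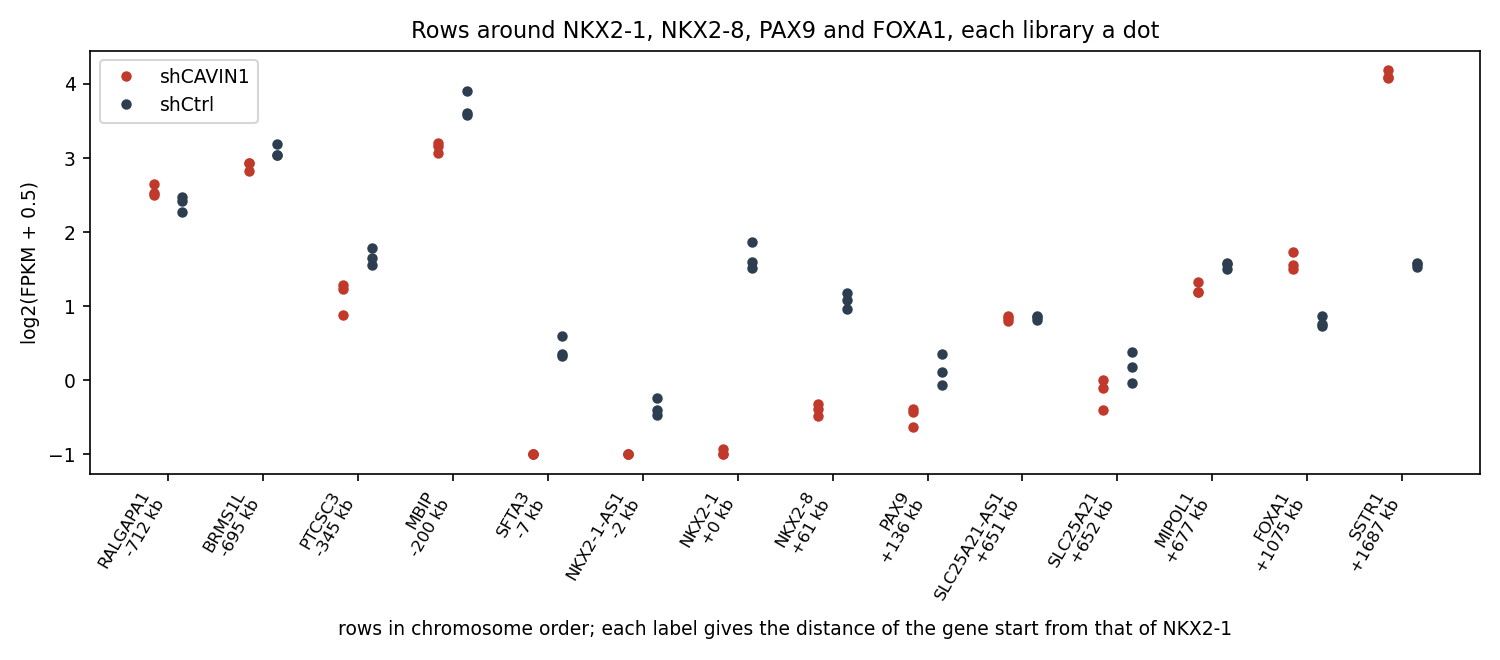
Log2(FPKM + 0.5) of the rows around NKX2-1 that reached 0.2 FPKM on average in a group, in chromosome order at equal spacing, with shCAVIN1 (red) left of shCtrl (dark) and each library a dot. SFTA3, NKX2-1-AS1, NKX2-1, NKX2-8 and PAX9 lie lower in shCAVIN1, and FOXA1 and SSTR1 lie higher.

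NKX6-1, a factor of beta cells and motor neurons, had 1.135, 0.854 and 1.43 FPKM in shCAVIN1 cells and 0.654, 0.753 and 0.639 FPKM in shCtrl cells (log2 fold change 0.46, SE 0.143, limma adjusted p = 0.0344). That call was not secure: it was lost without shCAVIN1 replicate 1 or 3 or shCtrl replicate 1 or 3, at limma adjusted p = 0.0713 to 0.0910, and after rescaling to a common sum (0.0554). NKX2-3, a gut and spleen factor under the filter, was listed at 0 in the shCAVIN1 libraries and at 0.230, 0.201 and 0.113 FPKM in shCtrl.

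The tested PAX genes, PAX6 and PAX3, were both called lower, as were 28.2% of all tested rows. PAX3 reached the filter in shCtrl cells alone, so it had to differ to be tested. PAX6, the eye and pancreas factor, had 0.738, 0.706 and 0.814 FPKM in shCAVIN1 cells and 5.45, 6.17 and 5.21 FPKM in shCtrl cells. Every shCAVIN1 library was far below every shCtrl library, with a mean of 0.753 ± 0.0551 FPKM in shCAVIN1 cells, 13.4% of the 5.61 ± 0.499 FPKM in shCtrl cells. The log2 fold change was -2.28 (SE 0.0804, limma adjusted p = 1.20e-05). PAX3, a factor of neural crest and muscle precursors, had 0.0112, 0.0237 and 0.0577 FPKM in shCAVIN1 cells and 1.16, 1.03 and 1.12 FPKM in shCtrl cells. Its mean in shCAVIN1 cells was 2.79% of that in shCtrl cells (log2 fold change -1.60, SE 0.0984, limma adjusted p = 7.24e-05). That ratio rests on shCAVIN1 values near the floor, and the log2 fold change depends on the 0.5 added. Together with the untested genes, the 9 PAX rows summed to 0.924 to 1.22 FPKM in shCAVIN1 libraries and 7.13 to 7.68 FPKM in shCtrl libraries. PAX1, PAX2 and PAX4 were listed at 0 in all 6 libraries.

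The 3 tested GATA genes split. GATA3, a factor of T cells and of luminal breast and urothelial cells, was listed at 0.0153, 0 and 0.0401 FPKM in shCAVIN1 cells and at 1.32, 0.847 and 1.43 FPKM in shCtrl cells. GATA2, known in blood stem cells and as a partner of the androgen receptor, had 9.08, 9.59 and 10.04 FPKM in shCAVIN1 cells and 6.50, 7.03 and 6.62 FPKM in shCtrl cells. GATA6, a factor of endoderm and of vascular smooth muscle, had 2.23, 2.42 and 2.58 FPKM in shCAVIN1 cells and 1.63, 1.24 and 1.21 FPKM in shCtrl cells. GATA3 thus came close to 0 while GATA2 and GATA6 were higher in every shCAVIN1 library than in any shCtrl library. The log2 fold changes were -1.70 for GATA3 (SE 0.159, limma adjusted p = 0.000305), 0.48 for GATA2 (SE 0.0550, limma adjusted p = 0.000668) and 0.65 for GATA6 (SE 0.107, limma adjusted p = 0.00287). The value of GATA3, with a listed 0 and reaching the filter in shCtrl cells alone, also depends on the 0.5 added. GATA2 held 79.8% ± 0.441 of the FPKM of these 3 genes in shCAVIN1 cells and 72.4% ± 4.23 in shCtrl cells. In a list of 6 GATA cofactors and related factors, 3 were tested and 1 called (33.3%, against 55.5% of all tested rows). That was TRPS1, a repressor and not strictly a cofactor, which rose (3.15 ± 0.115 FPKM in shCAVIN1 cells, 1.98 ± 0.162 FPKM in shCtrl cells, limma adjusted p = 0.000940). ZFPM1 and LDB1 did not pass, although LDB1 passed under median-of-ratios scaling and without shCtrl replicate 2 (limma adjusted p = 0.0316 and 0.0145). ZFPM2, under the filter and not tested, had groups that did not overlap. It was at 0.647 ± 0.121 FPKM in shCAVIN1 cells and 0.0847 ± 0.0353 FPKM in shCtrl cells.

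**Figure D3:**
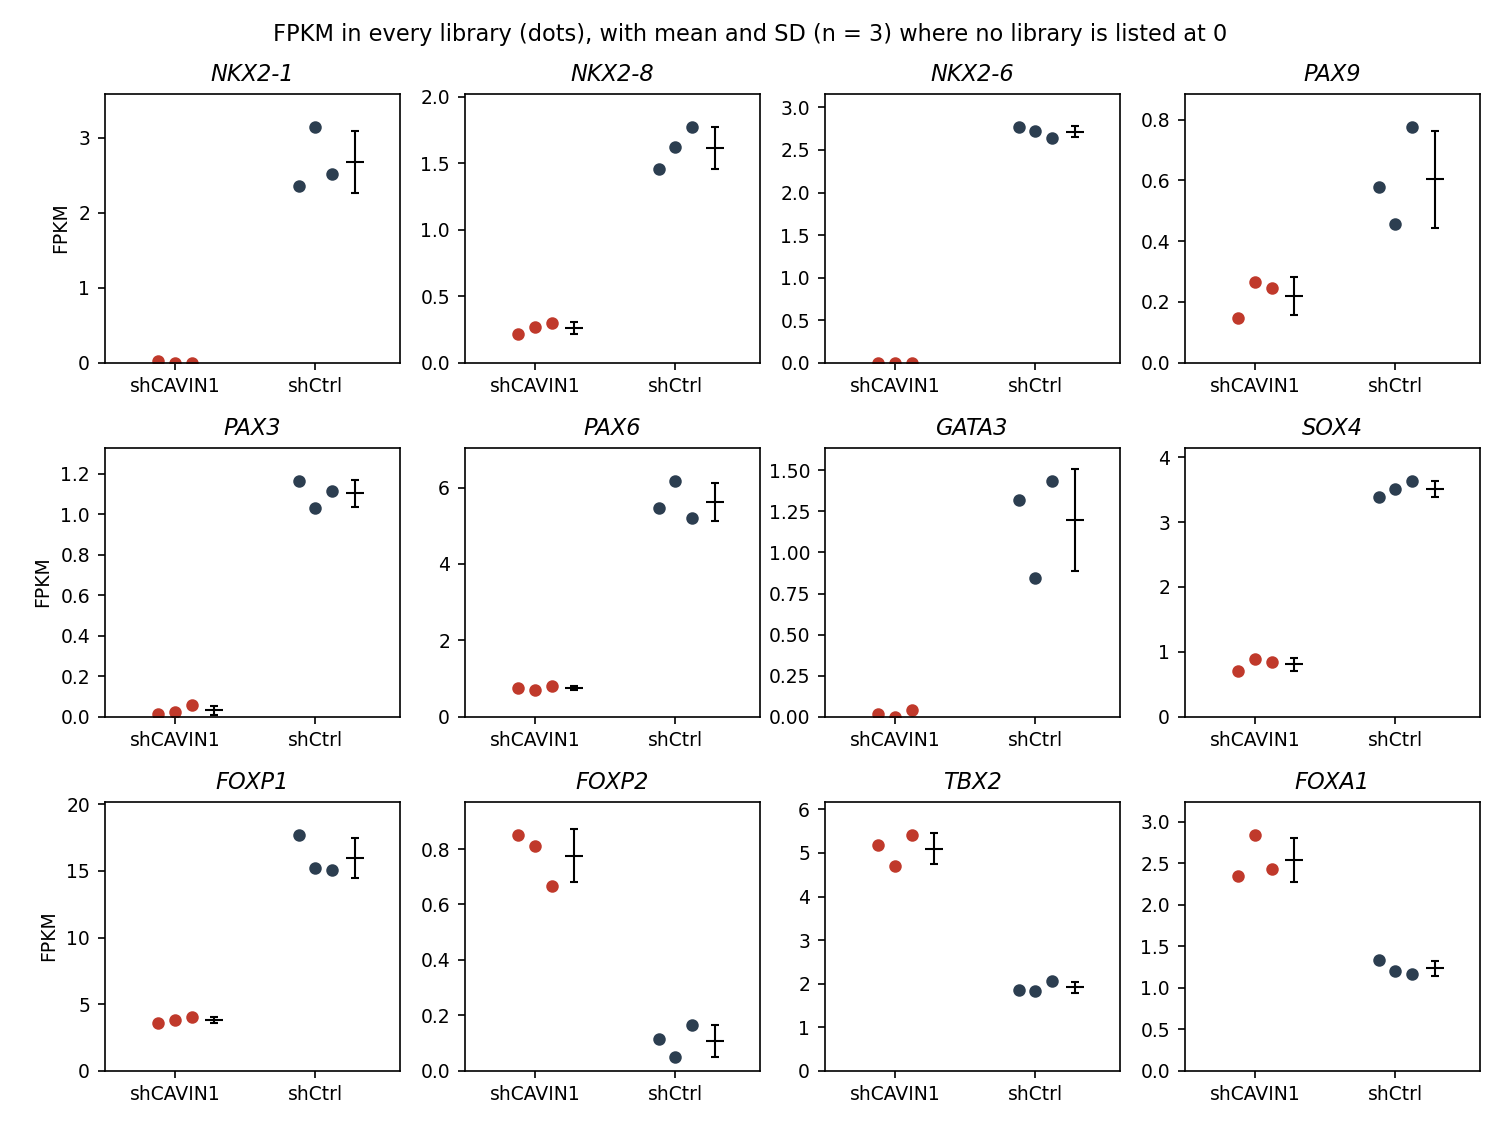
FPKM of 12 genes in every library (dots, shCAVIN1 left in red, shCtrl right in dark), with a bar for mean and SD (n = 3) where no library is listed at 0. The first 9 genes lie lower in shCAVIN1, and FOXP2, TBX2 and FOXA1 lie higher, each without overlap; each panel has its own scale from 0.

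All 5 tested SOX genes passed, where 55.5% of all tested rows did, and SOX9 reached the filter in shCtrl cells alone. SOX4, a group C factor active in progenitor cells and many tumours, had 0.697, 0.882 and 0.843 FPKM in shCAVIN1 cells and 3.39, 3.52 and 3.63 FPKM in shCtrl cells. Its mean was 23.0% of shCtrl (0.808 ± 0.0977 FPKM in shCAVIN1 cells, 3.51 ± 0.122 FPKM in shCtrl cells, log2 fold change -1.62, SE 0.0789, limma adjusted p = 3.26e-05). SOX12, its relative in group C, had 4.75, 5.35 and 5.66 FPKM in shCAVIN1 cells and 6.12, 6.44 and 6.12 FPKM in shCtrl cells. The fall of SOX12 was small and its call fragile (log2 fold change -0.23, SE 0.0694, limma adjusted p = 0.0312). It was lost when any single library other than shCAVIN1 replicate 3 was left out (limma adjusted p = 0.0642 to 0.0769) and after rescaling to a common sum (0.629). The third group C gene, SOX11, was listed at 0 throughout, and the share of SOX4 in the group was 13.3% ± 0.747 in shCAVIN1 cells and 36.1% ± 1.02 in shCtrl cells.

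SOX9, the master factor of cartilage and a factor of prostate budding, had 0.482, 0.356 and 0.425 FPKM in shCAVIN1 cells and 1.21, 1.05 and 1.06 FPKM in shCtrl cells. Its mean was 37.9% of shCtrl (log2 fold change -0.81, SE 0.0969, limma adjusted p = 0.000812). Of 13 cartilage genes known as SOX9 targets, 4 were tested and 2 called (50.0%, against 55.5% of all tested rows). COL27A1 (log2 fold change -0.62, limma adjusted p = 0.00102) and COL9A2 (-0.39, limma adjusted p = 0.00841) fell, and MATN3 and COL9A3 did not pass. COL9A2 reached the filter in shCtrl cells alone and lost its call after rescaling to a common sum (limma adjusted p = 0.146). SOX13, a group D factor, had 3.33, 3.24 and 3.48 FPKM in shCAVIN1 cells and 2.10, 1.85 and 2.25 FPKM in shCtrl cells. SOX15 had 5.29, 4.75 and 4.79 FPKM in shCAVIN1 cells and 3.57, 4.31 and 3.44 FPKM in shCtrl cells. Both rose, SOX13 by 0.59 (limma adjusted p = 0.00109) and SOX15 by 0.35 (limma adjusted p = 0.0173) on the log2 scale. SOX15 lost its call without shCAVIN1 replicate 1, shCtrl replicate 1 or shCtrl replicate 3 (limma adjusted p = 0.0559 to 0.0621), and after rescaling to a common sum (0.0870).

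Among the forkhead genes, 24 of 44 were tested, with 8 higher, 8 lower and 8 that did not pass, so that 66.7% were called, against 55.5% of all tested rows. FOXP1, a repressor of the FOXP subfamily known in lymphocytes, heart and lung, had the largest fall. It had 3.58, 3.82 and 4.05 FPKM in shCAVIN1 cells and 17.7, 15.2 and 15.04 FPKM in shCtrl cells. The mean was 3.82 ± 0.233 FPKM in shCAVIN1 cells, 23.9% of the 16.0 ± 1.49 FPKM in shCtrl cells (log2 fold change -1.93, SE 0.0783, limma adjusted p = 1.91e-05). In the order of levels among the 110 genes it stood at place 22 in shCAVIN1 cells and at place 4 in shCtrl cells.

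FOXP2, the FOXP factor known for speech circuits, was the reverse at a low level. It had 0.850, 0.810 and 0.667 FPKM in shCAVIN1 cells and 0.113, 0.0484 and 0.163 FPKM in shCtrl cells, a 7.16-fold higher mean. Its mean over the 6 libraries was under the filter, and without a filter its log2 fold change was 1.07 (limma adjusted p = 0.000557). FOXP4 had 3.46, 3.14 and 2.87 FPKM in shCAVIN1 cells and 2.89, 2.56 and 3.31 FPKM in shCtrl cells, and the groups overlapped (limma adjusted p = 0.440). FOXP3, the regulatory T cell factor, stayed at or under 0.143 FPKM in every library. Since FPKM is per length, levels may be set side by side between genes: FOXP1 held 48.6% ± 4.10 of the FOXP sum in shCAVIN1 cells and 83.8% ± 2.31 in shCtrl cells. FOXP4 held 40.1% ± 2.83 in shCAVIN1 cells and 15.4% ± 2.16 in shCtrl cells. The whole FOXP sum was 7.86 ± 0.183 FPKM in shCAVIN1 cells and 19.1 ± 1.50 FPKM in shCtrl cells.

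The FOXO factors, which are held in the cytoplasm by AKT phosphorylation and act on stress, growth and metabolism genes, also diverged. FOXO1 had 2.23, 1.79 and 1.97 FPKM in shCAVIN1 cells and 1.16, 0.597 and 0.803 FPKM in shCtrl cells. FOXO3 had 7.45, 7.06 and 6.81 FPKM in shCAVIN1 cells and 12.6, 9.98 and 11.8 FPKM in shCtrl cells. FOXO4 had 4.87, 4.79 and 4.67 FPKM in shCAVIN1 cells and 6.09, 6.76 and 7.38 FPKM in shCtrl cells. In every one of these genes the groups stayed apart, FOXO1 above and the others below shCtrl. FOXO6 had 0.859, 0.679 and 1.08 FPKM in shCAVIN1 cells and 1.72, 1.77 and 2.02 FPKM in shCtrl cells, a mean of 47.5% of shCtrl.

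The log2 fold changes were 0.90 for FOXO1 (SE 0.164, limma adjusted p = 0.00443) and -0.65 for FOXO3 (SE 0.0893, limma adjusted p = 0.00141). They were -0.45 for FOXO4 (SE 0.0729, limma adjusted p = 0.00266) and -0.78 for FOXO6 (SE 0.126, limma adjusted p = 0.00276). FOXO4 lost its call after rescaling to a common sum (limma adjusted p = 0.107), and the median log2 fold change of the 17 other tested protein-coding genes within 2 Mb of it on the X chromosome was -0.39. Fragments of FOXO3 may be shared with its near copy FOXO3B. The FOXO sum was 14.8 ± 0.575 FPKM in shCAVIN1 cells and 20.9 ± 1.56 FPKM in shCtrl cells, of which FOXO1 made 13.5% ± 0.965 in shCAVIN1 cells and 4.06% ± 1.19 in shCtrl cells.

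Known FOXO targets did not move as a block. Of 16 tested, 5 were higher, 4 lower and 7 did not pass, a called share of 56.2% near the 55.5% of all tested rows, and the median log2 fold change was -0.01, beside -0.02 over all tested rows. The muscle ubiquitin ligase gene FBXO32 fell (0.682 ± 0.0986 FPKM in shCAVIN1 cells, 1.60 ± 0.0260 FPKM in shCtrl cells, limma adjusted p = 0.000481). The insulin adaptor gene IRS2 rose (5.72 ± 0.436 FPKM in shCAVIN1 cells, 2.72 ± 0.654 FPKM in shCtrl cells, limma adjusted p = 0.00279), as did the sestrin SESN1 (log2 fold change 0.59, limma adjusted p = 0.000637) and the superoxide dismutase SOD2 (0.34, limma adjusted p = 0.00149). After rescaling to a common sum 5 of the 16 passed, where 3412 of all 13941 tested rows did. SOD2 was not among the 5 (limma adjusted p = 0.0846).

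Of 15 genes of the PI3K and AKT control of FOXO proteins, 3 were higher, 6 lower and 6 did not pass, and their median log2 fold change was -0.07. With 9 of the 15 called, the share was near the 55.5% of all tested rows. AKT1 had 229 ± 3.67 FPKM in shCAVIN1 cells and 161 ± 4.78 FPKM in shCtrl cells (log2 fold change 0.51, limma adjusted p = 0.000229). The related kinases SGK3 and SGK1 moved apart, SGK3 higher (0.94, limma adjusted p = 0.000430) and SGK1 lower (-0.84, limma adjusted p = 0.000578). YWHAZ, a 14-3-3 protein gene, was higher by 0.34 (limma adjusted p = 0.00189) and lost its call after rescaling to a common sum, where it was at 0.46 (SE 0.191, limma adjusted p = 0.106). After rescaling, 3 of the 15 passed, where 3412 of all 13941 tested rows did. Without shCAVIN1 replicate 2 or without shCAVIN1 replicate 3, 5 passed, where 6218 and 6332 of all tested rows did.

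**Figure D4:**
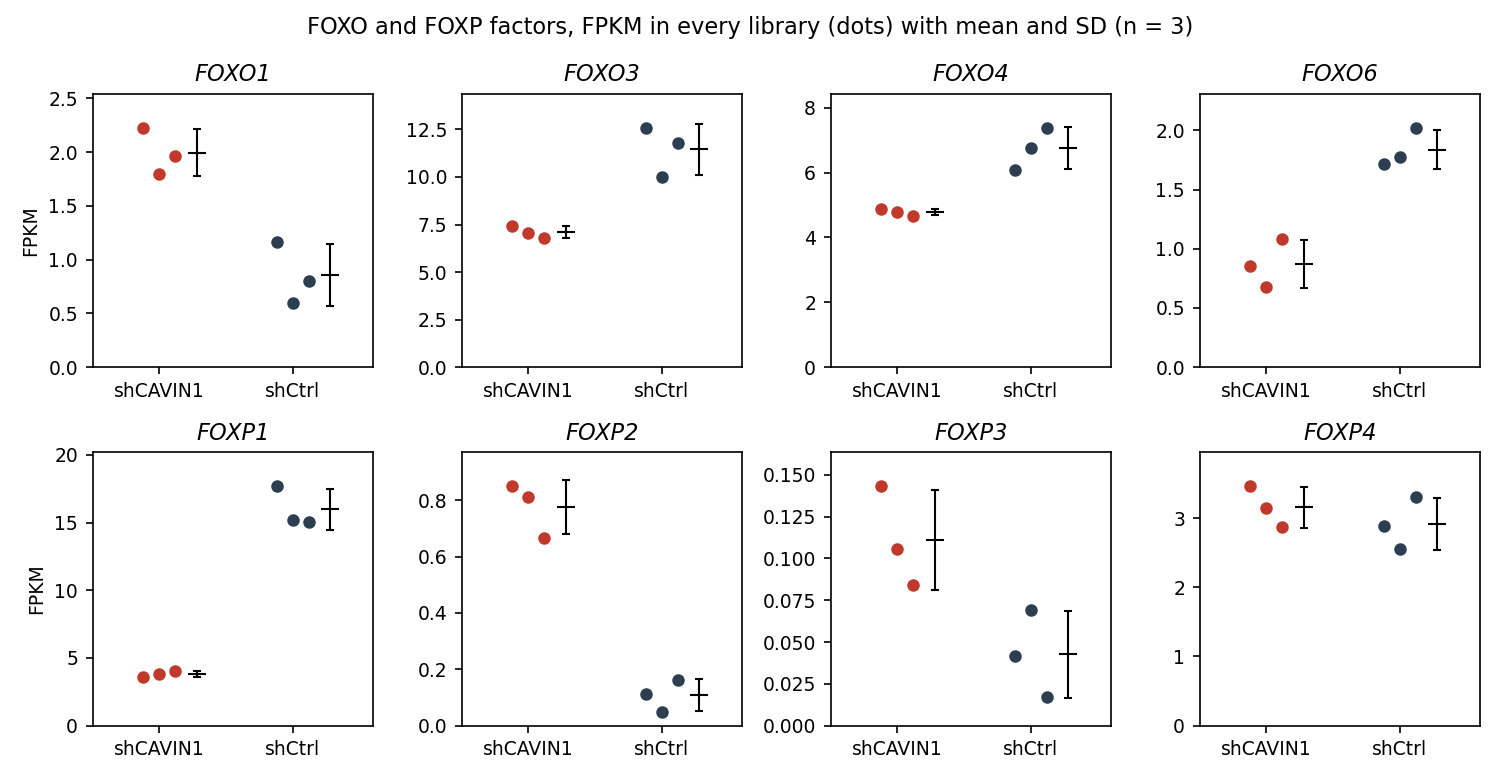
FPKM of the FOXO and FOXP genes in every library (dots, shCAVIN1 left in red, shCtrl right in dark) with mean and SD (n = 3). FOXO1, FOXP2 and FOXP3 lie higher in shCAVIN1, FOXO3, FOXO4, FOXO6 and FOXP1 lower, and FOXP4 overlaps; each panel has its own scale from 0.

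FOXM1, the forkhead factor of the G2 and mitosis genes, was the highest of the 110 genes in both groups. It had 38.5, 38.3 and 36.8 FPKM in shCAVIN1 cells and 32.5, 30.6 and 29.4 FPKM in shCtrl cells (log2 fold change 0.29, SE 0.0492, limma adjusted p = 0.00308). Of its 12 known targets, all tested, 10 were higher, none was lower, and AURKB and CCNB1 did not pass. That is 83.3% higher, against 27.3% of all tested rows. The median log2 fold change of the 12 was 0.47, beside -0.02 over all tested rows. The centromere histone gene CENPA had 45.1 ± 2.08 FPKM in shCAVIN1 cells and 29.4 ± 1.36 FPKM in shCtrl cells (log2 fold change 0.61, limma adjusted p = 0.000241). The mitotic kinesin KIF20A had 96.1 ± 2.003 FPKM in shCAVIN1 cells and 61.9 ± 5.63 FPKM in shCtrl cells (0.63, limma adjusted p = 0.000560). SKP2 and CKS1B, which degrade the cell cycle inhibitor p27, rose by 0.49 and 0.53 on the log2 scale (limma adjusted p = 0.000255 and 0.00115). After rescaling to a common sum, FOXM1 lost its call (log2 fold change 0.42, limma adjusted p = 0.104). Of the 12 targets 6 then passed, all higher, where 3412 of all 13941 tested rows passed, 2199 of them higher.

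Forkhead factors of mesenchyme moved both ways. FOXD1, a stromal factor of the embryonic kidney, had 11.7, 13.8 and 14.7 FPKM in shCAVIN1 cells and 23.8, 26.7 and 24.4 FPKM in shCtrl cells. FOXF1, a Hedgehog-responsive factor of gut and lung mesenchyme, had 0.490, 0.386 and 0.401 FPKM in shCAVIN1 cells and 1.25, 1.33 and 0.972 FPKM in shCtrl cells. FOXC1, a factor of eye, skull and vessel mesenchyme, had 15.2, 15.3 and 16.8 FPKM in shCAVIN1 cells and 9.01, 9.40 and 8.82 FPKM in shCtrl cells. FOXD1 and FOXF1 were thus lower and FOXC1 higher in every shCAVIN1 library than in any shCtrl library. FOXD1 was at 53.6% of shCtrl (log2 fold change -0.88, SE 0.0919, limma adjusted p = 0.000461) and FOXF1 at 36.0% (-0.86, SE 0.115, limma adjusted p = 0.00126). FOXC1 was 1.74-fold higher (0.76, SE 0.0541, limma adjusted p = 0.000115). FOXL1, which starts close to FOXF1 on chromosome 16 and marks mesenchyme under epithelium, had 0.984, 1.21 and 1.32 FPKM in shCAVIN1 cells and 1.40, 1.29 and 1.28 FPKM in shCtrl cells and did not pass (limma adjusted p = 0.301).

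Of 14 Hedgehog pathway genes, 9 were tested, and 4 were higher, none lower, and 5 did not pass, and their median log2 fold change was 0.26. The share called, 44.4%, was below the 55.5% of all tested rows. The coreceptor genes GAS1 (1.66 ± 0.150 FPKM in shCAVIN1 cells, 0.705 ± 0.0830 FPKM in shCtrl cells, limma adjusted p = 0.000611) and CDON (1.41 ± 0.0907 FPKM in shCAVIN1 cells, 0.662 ± 0.0585 FPKM in shCtrl cells, limma adjusted p = 0.000740) rose. The related coreceptor gene BOC, under the filter and not tested, was at 0.237 ± 0.0512 FPKM in shCAVIN1 cells and 0.480 ± 0.0339 FPKM in shCtrl cells, without overlap. Also called higher were the inhibitor HHIP (log2 fold change 0.58, limma adjusted p = 0.00466) and the signal transducer SMO (0.17, limma adjusted p = 0.0129). SMO lost its call after rescaling to a common sum and without shCAVIN1 replicate 2 (limma adjusted p = 0.184 and 0.0606). GLI1, the usual readout of the pathway, did not pass, at 0.594 ± 0.0725 FPKM in shCAVIN1 cells and 0.560 ± 0.0332 FPKM in shCtrl cells. GLI3, another effector, had 1.80 ± 0.437 FPKM in shCAVIN1 cells and 3.25 ± 1.16 FPKM in shCtrl cells and did not pass (log2 fold change -0.67, limma adjusted p = 0.0731), but was lower without shCtrl replicate 2 (-0.94, limma adjusted p = 0.00816). BOC, GLI1 and GLI3 are named after their values were seen.

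Other forkhead genes moved by less. FOXK2, a broadly expressed regulator of metabolism genes, had 29.5, 31.4 and 29.7 FPKM in shCAVIN1 cells and 23.0, 22.1 and 23.0 FPKM in shCtrl cells (log2 fold change 0.40, SE 0.0421, limma adjusted p = 0.000460). The 50 other tested protein-coding genes within 2 Mb of FOXK2 had a median log2 fold change of 0.51, and with it subtracted the value of FOXK2 was -0.11. FOXL2, the ovary and pituitary factor, had 3.85, 4.69 and 4.56 FPKM in shCAVIN1 cells and 6.32, 6.18 and 6.66 FPKM in shCtrl cells (log2 fold change -0.50, SE 0.0789, limma adjusted p = 0.00236). FOXN3, a checkpoint repressor, had 5.44, 5.64 and 5.37 FPKM in shCAVIN1 cells and 4.47, 4.13 and 4.23 FPKM in shCtrl cells. Its relative FOXN2 had 6.30, 6.25 and 6.05 FPKM in shCAVIN1 cells and 8.003, 8.50 and 7.76 FPKM in shCtrl cells. The FOXN relatives therefore went opposite ways, FOXN3 by 0.33 (limma adjusted p = 0.00221) and FOXN2 by -0.36 (limma adjusted p = 0.00142) on the log2 scale. The 15 other tested protein-coding genes within 2 Mb of FOXN3 had a median of 0.27, and with it subtracted the value of FOXN3 was 0.05. FOXL2 and FOXN2 lost their calls after rescaling to a common sum (limma adjusted p = 0.0796 and 0.289). FOXH1, the SMAD partner of Nodal signalling, had 1.74, 1.50 and 1.35 FPKM in shCAVIN1 cells and 1.07, 1.005 and 1.09 FPKM in shCtrl cells (log2 fold change 0.38, limma adjusted p = 0.0139).

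The forkhead genes that did not pass kept close levels or overlapped. FOXJ3 had 12.02, 11.98 and 11.8 FPKM in shCAVIN1 cells and 12.5, 10.8 and 11.9 FPKM in shCtrl cells (limma adjusted p = 0.735). FOXK1 had 4.53, 3.84 and 4.10 FPKM in shCAVIN1 cells and 5.49, 4.18 and 4.78 FPKM in shCtrl cells (limma adjusted p = 0.174). FOXJ2 had 3.37, 2.90 and 2.88 FPKM in shCAVIN1 cells and 4.33, 2.34 and 3.29 FPKM in shCtrl cells (limma adjusted p = 0.756). In these 3 the shCtrl libraries spread wider than the difference between the groups. FOXA3, FOXD2 and FOXE1 stayed under 1 FPKM in every library, with log2 fold changes of 0.24, 0.16 and -0.18. FOXA3 passed without shCtrl replicate 2 (log2 fold change 0.37, limma adjusted p = 0.0297).

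The sine oculis homeobox genes act with EYA coactivators in muscle, kidney and sensory organs. SIX2, which keeps kidney progenitors, had 7.34, 8.56 and 9.13 FPKM in shCAVIN1 cells and 5.11, 5.25 and 5.62 FPKM in shCtrl cells. SIX4 had 4.68, 4.84 and 4.95 FPKM in shCAVIN1 cells and 6.05, 5.85 and 5.70 FPKM in shCtrl cells. SIX2 was higher and SIX4 lower in each shCAVIN1 library than in any shCtrl library. The log2 fold changes were 0.60 for SIX2 (SE 0.0856, limma adjusted p = 0.00164) and -0.26 for SIX4 (SE 0.0473, limma adjusted p = 0.00453). SIX4 lost its call after rescaling to a common sum (limma adjusted p = 0.502). SIX5 had 5.00, 4.93 and 5.67 FPKM in shCAVIN1 cells and 5.14, 4.02 and 4.55 FPKM in shCtrl cells and did not pass (limma adjusted p = 0.176).

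Of 6 EYA and DACH partners of these proteins, 3 were tested. EYA2 had 4.72 ± 0.486 FPKM in shCAVIN1 cells and 1.53 ± 0.244 FPKM in shCtrl cells (log2 fold change 1.37, limma adjusted p = 0.000183). EYA4 rose by 0.28 on the log2 scale (limma adjusted p = 0.0114), a call lost after rescaling to a common sum (0.0815). EYA3 did not pass at a limma adjusted p of 0.0513, and passed under 5 of the alternatives tried.

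Of the 13 T-box genes, 3 were tested and TBX2 alone was called (33.3%, against 55.5% of all tested rows). This repressor of senescence genes, also active in heart and limb, had 5.18, 4.71 and 5.41 FPKM in shCAVIN1 cells and 1.85, 1.84 and 2.07 FPKM in shCtrl cells. Its mean was 2.66-fold higher in shCAVIN1 cells, 5.10 ± 0.359 FPKM in shCAVIN1 cells and 1.92 ± 0.128 FPKM in shCtrl cells (log2 fold change 1.21, SE 0.0726, limma adjusted p = 6.69e-05). The 20 other tested protein-coding genes within 2 Mb of TBX2 on chromosome 17 had a median of -0.35. TBX3, its closest relative, had 11.7, 11.3 and 11.5 FPKM in shCAVIN1 cells and 12.7, 11.8 and 11.4 FPKM in shCtrl cells (limma adjusted p = 0.369). TBX18, a factor of urinary tract mesenchyme and pericytes, had 3.05, 3.07 and 2.67 FPKM in shCAVIN1 cells and 3.08, 3.16 and 3.19 FPKM in shCtrl cells, which did not overlap but did not pass (limma adjusted p = 0.290). TBX4, next to TBX2, and TBX5, next to TBX3, were low or listed at 0. Of 4 tested factors in other T-box and GATA-like families, MGA fell (5.21 ± 0.339 FPKM in shCAVIN1 cells, 9.13 ± 0.745 FPKM in shCtrl cells, limma adjusted p = 0.000396). GATAD2A rose by 0.28 on the log2 scale (limma adjusted p = 0.00167), a call lost after rescaling, where it was at 0.40 (SE 0.159, limma adjusted p = 0.0968), and GATAD1 and GATAD2B did not pass.

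The Groucho family, some of whose proteins are corepressors that FOX, PAX and NKX2 factors recruit to silence genes, was measured for 6 genes. All 5 tested passed, where 55.5% of all tested rows did. TLE4 had 43.5 ± 1.55 FPKM in shCAVIN1 cells and 15.6 ± 1.38 FPKM in shCtrl cells (log2 fold change 1.45, limma adjusted p = 2.99e-05). TLE3 was at 0.382 ± 0.0904 FPKM in shCAVIN1 cells and 2.95 ± 0.364 FPKM in shCtrl cells (-1.97, limma adjusted p = 6.70e-05), and reached the filter in shCtrl cells alone. The paralogs TLE4 and TLE3 thus moved in opposite directions. TLE2 fell by 0.60 (limma adjusted p = 0.00190), TLE5, listed as AES, rose by 0.30 (limma adjusted p = 0.00511), and TLE1, named to complete the list, fell by 0.20 (limma adjusted p = 0.0296) on the log2 scale. The calls of TLE5 and TLE1 were lost after rescaling to a common sum (limma adjusted p = 0.127 and 0.662). TLE5 was then at 0.43 (SE 0.187) and TLE1 at -0.10 (SE 0.145). TLE1 also lost its call without shCAVIN1 replicate 1 or 2 or without shCtrl replicate 2 or 3 (limma adjusted p = 0.0612 to 0.101).

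A list of 51 other homeobox genes of comparable developmental roles was set beside the 110. Of its 20 tested genes, 13 passed (65.0%, against 55.5% of all tested rows), 6 higher and 7 lower, and 3 changed at least 2-fold, against 5.54% of all tested rows. Of these 3, ISL1 and LHX9 reached the filter in their high group alone. ISL1, a motor neuron and heart progenitor factor, had 1.142 ± 0.0592 FPKM in shCAVIN1 cells and 0.0749 ± 0.0333 FPKM in shCtrl cells (log2 fold change 1.52, limma adjusted p = 8.41e-05). LHX9, a gonad and limb factor, had 0.259 ± 0.116 FPKM in shCAVIN1 cells and 1.36 ± 0.260 FPKM in shCtrl cells (-1.30, limma adjusted p = 0.000843). TGIF1, a repressor of TGF-beta signalling, rose by 0.58 (limma adjusted p = 0.000303), and PBX3, a HOX cofactor, fell by 0.53 (limma adjusted p = 0.000309) on the log2 scale. PBX3 lost its call after rescaling to a common sum (limma adjusted p = 0.0917), where 7 of the 20 passed, against 3412 of all 13941 tested rows. The list thus held changes in both directions, as the 110 genes did.

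**Figure D5:**
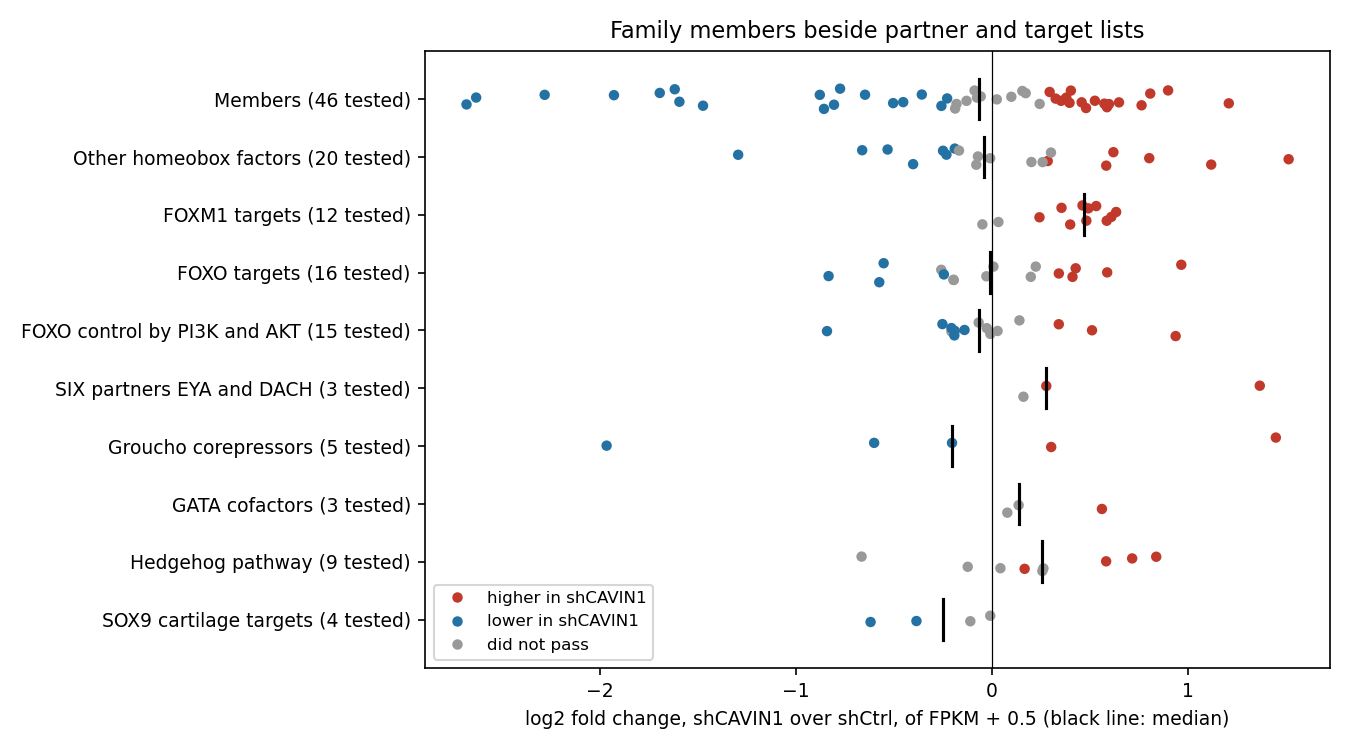
Log2 fold change of FPKM + 0.5, shCAVIN1 over shCtrl, of each tested gene (dots; red higher, blue lower, grey did not pass) in the 46 family genes and in 9 lists of related factors, partners and targets, with a black line at the median. FOXM1 targets lie mostly to the right of 0, while FOXO targets, other homeobox genes and the family genes lie on both sides.

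In level, FOXM1, FOXD1, FOXK2, FOXP1, TBX3, FOXJ3, FOXO3 and FOXC1 were in this order in shCtrl cells. Among these, FOXM1 stood apart, FOXD1 and FOXK2 lay at 25.0 ± 1.56 and 22.7 ± 0.528 FPKM, and FOXP1 at 16.0 ± 1.49 FPKM. TBX3, FOXJ3 and FOXO3 lay within 11.98 ± 0.667 to 11.5 ± 1.34 FPKM and did not differ beyond their spread. In shCAVIN1 cells the order of FOXM1, FOXK2, FOXC1, FOXD1, FOXJ3, TBX3 and GATA2 ran from high to low. There, FOXC1 at 15.8 ± 0.894 FPKM came ahead of FOXD1 at 13.4 ± 1.53 FPKM, while FOXJ3 and TBX3 lay at 11.9 ± 0.119 and 11.5 ± 0.189 FPKM.

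Of the 64 genes that were not tested, 21 were listed at 0 in all 6 libraries. These were FOXA2, FOXF2, FOXI1, FOXI2, FOXQ1, FOXR2, SOX1, SOX3, SOX11, SOX14, SOX17, TBX5, TBX22, GATA5, PAX1, PAX2, PAX4, NKX1-2, NKX2-2, NKX2-4 and NKX6-3. They include the whole chromosome 20 group of NKX2-2, NKX2-4, PAX1 and FOXA2. A further 8 either reached 0.5 FPKM in a library or had groups that did not overlap with a mean of at least 0.1 FPKM in the higher group: FOXP2, FOXP3, PAX9 and NKX2-3, given above, and SOX2, SOX10, SOX18 and TBX6. SOX2, the pluripotency factor, was listed at 0 in each shCAVIN1 library, against 0.121, 0.0848 and 0.163 FPKM in shCtrl cells. SOX10, the glial factor, averaged 0.0640 FPKM in shCAVIN1 cells and 0.165 FPKM in shCtrl cells, and SOX18, a vessel factor, 0.155 FPKM in shCAVIN1 cells and 0.345 FPKM in shCtrl cells. TBX6, a somite factor, averaged 0.116 FPKM in shCAVIN1 cells and 0.231 FPKM in shCtrl cells.

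The other 35 stayed at or under 0.374 FPKM in every library. Among FOX genes these were FOXB1, FOXB2, FOXC2, FOXD3, FOXD4, FOXE3, FOXI3, FOXJ1, FOXN1, FOXN4, FOXR1 and FOXS1. The SOX genes were SOX5, SOX6, SOX7, SOX8, SOX21 and SOX30, and the T-box genes were TBX1, TBX4, TBX10, TBX15, TBX19, TBX20 and TBX21. The rest were GATA1, GATA4, PAX5, PAX7, PAX8, SIX3, SIX6, NKX2-5, NKX3-2 and NKX6-2. FOXD4 has near-identical copies, so its low value is uncertain. Noncoding RNAs that adjoin the family genes were measured for 13 rows; 2 were tested, FOXD2-AS1 and FOXN3-AS1, and neither passed (limma adjusted p = 0.433 and 0.147).

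Markers of the cell types were measured beside these genes. VIM and PDGFRB, general stromal markers, did not pass, with VIM at 296 ± 13.8 FPKM in shCAVIN1 cells and 280 ± 28.1 FPKM in shCtrl cells. The 14 stromal markers summed to 848 to 862 FPKM in shCAVIN1 libraries and 1278 to 1396 FPKM in shCtrl libraries. Of the 12 tested, 2 were higher and 7 lower, against 27.3% and 28.2% of all tested rows, and 3 did not pass. Their median log2 fold change was -0.62, beside -0.02 over all tested rows. At least 2-fold changes were called for 2 of the 12, both lower (16.7%, against 5.54% of all tested rows). VIM and PDGFRB thus did not stand for the list, which was mostly lower in shCAVIN1 cells. The epithelial list summed to 241 to 256 FPKM in shCAVIN1 libraries and 398 to 432 FPKM in shCtrl libraries, nearly all KRT18 and KRT8. These keratin genes went opposite ways, KRT18 at 219 ± 7.59 FPKM in shCAVIN1 cells and 385 ± 17.7 FPKM in shCtrl cells (log2 fold change -0.81, limma adjusted p = 0.000108), and KRT8 at 28.6 ± 0.247 FPKM in shCAVIN1 cells and 23.5 ± 1.23 FPKM in shCtrl cells (0.28, limma adjusted p = 0.00332), a call lost after rescaling (0.124). Of the 3 epithelial markers tested, 1 was called higher and 1 lower, against 27.3% and 28.2% of all tested rows. Of the defining genes of the epithelial list, KLK3 was listed at 0, and CDH1 and EPCAM stayed under the filter. Endothelial markers summed to 1.18 to 1.36 FPKM in shCAVIN1 libraries and 0.439 to 0.890 FPKM in shCtrl libraries, with PECAM1 near 0 and EMCN listed at 0. Of the 8 endothelial markers 1 was tested and called higher (log2 fold change 0.99), as were 27.3% of all tested rows. It reached the filter in shCAVIN1 cells alone, so it had to differ to be tested. Immune markers summed to 10.1 to 10.4 FPKM in shCAVIN1 libraries and 7.87 to 8.59 FPKM in shCtrl libraries, nearly all CD68, with CD3E and TYROBP listed at 0. Of the 2 immune markers tested, 1 was called higher and 1 lower, against 27.3% and 28.2% of all tested rows. Neural crest and Schwann markers summed to 16.8 to 17.1 FPKM in shCAVIN1 libraries and 10.4 to 10.7 FPKM in shCtrl libraries, through MITF and ERBB3, while SOX10 was near 0. Of these 8 markers 2 were tested and both were called higher, as were 27.3% of all tested rows. The part of these differences in the changes of the family genes was not tested, and in bulk RNA fewer cells that express a gene and less RNA per cell cannot be told apart.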

How the data were processed

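Total RNA of 6 WPMY-1 libraries (3 shCAVIN1, 3 shCtrl) was extracted with TRIzol and made into libraries with a stranded kit, per the labels' protocols. The authors deposited FPKM values for 33117 gene symbols. Per the submitters' processing notes the build was GRCh38 and the tools were CASAVA, bcl2fastq 2.17.1.14, TopHat2 2.2.5 and TopHat. Not given in the sources used here were the quantifier, annotation, strand setting and filters. FPKM divides by the mapped fragments of a library, so a few abundant RNAs lower all other values: the 10 highest rows held 21.1% to 42.5% of a library's sum, and the sums were 758837 to 1043840. Depth is unknown, so no counting interval is given and low values carry the widest error; between 12422 and 12605 rows reached 1 FPKM per library.

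From the deposited FPKM values, log2(FPKM + 0.5) was computed and tested with limma 3.58.1 in R 4.3.3 (1 term for the group, trended empirical Bayes variances), for rows with a mean of at least 0.5 FPKM. P-values were adjusted by the Benjamini-Hochberg method over all 13941 rows, with 0.05 as the threshold. The test was first run on simulated data. Tables and figures used Python 3.11.15, pandas 2.3.3, scipy 1.17.1 and matplotlib 3.10.9. Positions come from GENCODE 29 (GRCh38) and promoter sequences from RefSeq (GRCh38.p14). Lists held 197 entries, all matched to a row, 3 through an older symbol.

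The members and the lists were chosen with earlier results of these data known. Values in every library are given for tested members with a mean of at least 1 FPKM in the higher group and for members called at 2-fold or more. Members under the filter are named with values where a library reached 0.5 FPKM or where the groups did not overlap and the higher mean was at least 0.1. Of each list other than the cell type markers, up to 4 called genes with the lowest adjusted p are named. The genes named from the marker lists were not chosen by that rule. BOC, GLI1, GLI3, TLE1, ZFPM2, KRT8, KRT18, genes that did not pass and are named to complete a count, and the chromosome 14 neighbours were chosen after their values were seen. Alternatives were other pseudocounts, filters, scalings and variance models, the replicate number as a block, each library left out, and the median of neighbouring genes subtracted. Rescaling to a common sum means TPM. A few genes are not reported here by name, though counts include them.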

Additional observations from a re-analysis of the deposited data

How the results depend on the processing

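Among the 46 tested family genes, no call changed direction under the other pseudocounts, filters, scalings, variance models, the block or the loss of a library. Under the alternative added after seeing the data, in which the median of the other tested protein-coding genes within 2 Mb was subtracted, FOXK2 turned to -0.11. FOXN3, FOXO4 and SOX12, also called, kept their direction but came to 0.05, -0.06 and -0.03. That alternative has no test. Of all tested rows, 7734 passed, and 3412 did after rescaling to TPM, which moved the median log2 fold change of all tested rows from -0.02 to 0.09 and the share of higher calls to 64.4%, against 49.2%. Errors also widened under TPM, where the SE of the log2 fold change of CAVIN1 was 0.191, against 0.0586 without rescaling. A call lost under TPM can thus come with a larger change, as for FOXM1 (0.42 under TPM, 0.29 without rescaling). The family count of 35 of 46 became 27 of 46 under TPM. It was 22 of 29 with a filter at a mean of 2 FPKM, where 6530 of all 11315 tested rows passed. With no filter it was 44 of 89, where 8505 of all 22580 tested rows passed. The family count at 2-fold or more was 9 of 46, against 5.54% of all tested rows. It was 4 of 29 with the filter at 2 FPKM, and 13 of 46 with a pseudocount of 0.1. A smaller pseudocount enlarges the log2 fold change of any low gene. The share of all tested rows at 2-fold was not computed under these alternatives, so these counts have no background. Leaving out single libraries gave 6218 to 8468 rows, 32 to 35 family genes and 9 to 10 family genes at 2-fold or more; for CAVIN1 it gave -1.30 to -1.21. Under median of ratios, quantile normalization, robust variances and no trend, the family count was 34 or 35.

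The replicate numbers did not pair the samples: same-numbered libraries correlated at 0.0936, 0.0714 and -0.0282 in their deviations from the group means. With the replicate number as a block, 7167 rows and 34 family genes passed, the log2 fold change of CAVIN1 was -1.25, and NKX6-1 was the family gene that lost its call (limma adjusted p = 0.0669). Of the other genes named, TLE1 and BRMS1L lost theirs (0.0551 and 0.0914), and GLI3 and GATAD1 passed (0.0260 and 0.0363). A listed 0 can be a failed estimate, and values under about 0.5 FPKM rest on few fragments of unknown number. The design has 1 hairpin and 3 libraries per group, so clone and hairpin cannot be told apart from the knockdown.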
